A study of Mus musculus with 31 samples.

Results

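The genes described here encode the potassium, voltage-gated sodium and voltage-gated calcium channel subunits of the mouse. They were taken by symbol from the protein-coding genes of GENCODE M21: every Kcn gene with a family letter and number, the Scn alpha and beta genes, and the Cacna, Cacnb and Cacng genes. The rule gave 133 genes, of 34865 genes in the bulk table and 55487 in the Smart-seq2 table, and all 133 were in both. There were 93 potassium channel genes, 14 sodium channel genes and 26 calcium channel genes. By role they comprised 40 voltage-gated potassium alpha subunits, 15 inward rectifiers, 14 two-pore-domain channels, 8 calcium- or sodium-activated potassium channels, 16 potassium auxiliary subunits, 10 sodium alpha and 4 sodium beta subunits, and, for calcium, 10 alpha1, 4 alpha2delta, 4 beta and 8 gamma subunits.

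Alpha subunits form the pore of a channel. Potassium channels open to hold or restore a negative membrane potential, sodium channels carry the upstroke of the action potential, and calcium channels admit the calcium that drives release and transcription. Auxiliary subunits change the gating or the surface level of the pore. In embryonic brain, young neurons acquire voltage-gated channels after their precursors leave the cell cycle, and leak channels are present from earlier.

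The study dissected dorsal and ventral diencephalon from wild-type mouse embryos at embryonic day E10.5 and sequenced 3 bulk libraries of each. The diencephalon is the forebrain region that gives rise to the thalamus dorsally and, in part, the hypothalamus ventrally. It also made Smart-seq2 libraries, a full-length method for very small inputs, at E11.5 from dissociated medial cortex. Of these, 13 carry the genotype label Emx1-cre(+/-)::MDMD::Axin2(-/-) and 12 the label Emx1-cre(+/-)::MDMD::Axin2(+/+). Axin2 is a negative-feedback regulator of Wnt signalling. The parents are described as Emx1-CreERT2::MADM-11::Axin2LacZ/+, in which a tamoxifen-inducible Cre under Emx1 control, a gene of the dorsal telencephalon, recombines chromosome 11 so that null and wild-type cells arise in the same embryo. Both genotypes therefore carry the Cre, and genes on the exchanged part of chromosome 11 segregate with the Axin2 allele. The strain, the tamoxifen treatment and the number of embryos are not given in the sources used here.

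Bulk libraries held 17604166 to 20838002 counts. Hypothalamic markers were higher in ventral for 10 of 10 genes, and markers of thalamus, epithalamus and pretectum were higher in dorsal for 9 of 10. Telencephalic markers were higher in dorsal for 8 of 8 (summed level 1837 to 1920 CPM, counts per 1000000 counts, against 70.3 to 95.3). Ventral libraries also held small-intestine transcripts (10 of 10 genes higher, 1881 to 6935 CPM against 8.36 to 10.8) and exocrine-pancreas transcripts (9 of 9, 532 to 2530 CPM against 2.40 to 3.23), which neither tissue label describes. Cycling markers were higher in dorsal for 8 of 8 genes (916 to 1152 CPM against 226 to 336). Of 14 neuron markers, 2 were higher in dorsal and 5 in ventral, with summed levels of 5965 to 6757 and 7237 to 7761 CPM. No gene of the cycling or neuron lists was without counts in either region. Ventral library 3 stood apart from the other ventral libraries (correlations 0.925 and 0.914, against 0.987 between libraries 1 and 2). Dorsal library 3 also stood apart from the other dorsal libraries (0.962 and 0.959, against 0.995 between dorsal libraries 1 and 2). In bulk tissue, fewer cells of a type and less RNA per cell cannot be told apart.

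Of the 133 channel genes, 91 reached the mean of 1 CPM required for testing, 40 had counts below it, and Kcne1 and Kcnk18 had none. By edgeR's quasi-likelihood test at a Benjamini-Hochberg adjusted p under 0.05, 8 tested channel genes (8.79%) had higher levels in dorsal diencephalon and 12 (13.2%) in ventral, against 7.14% and 9.54% of all 14701 tested genes. In either direction the shares were 22.0% of channel genes and 16.7% of all genes. The dorsal and ventral libraries did not overlap for 42 tested channel genes, 21 in each direction, against 19.0% and 20.0% of all tested genes. The median log2 difference, dorsal minus ventral, was 0.17 for channel genes and 0.0062 for all tested genes. Summed channel expression was 1770, 1701 and 1681 CPM in the dorsal libraries and 1689, 1623 and 1953 CPM in the ventral ones, so the totals of the regions overlapped while single genes differed by up to 23.4-fold, or more for genes near 0.

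**Figure D1:**
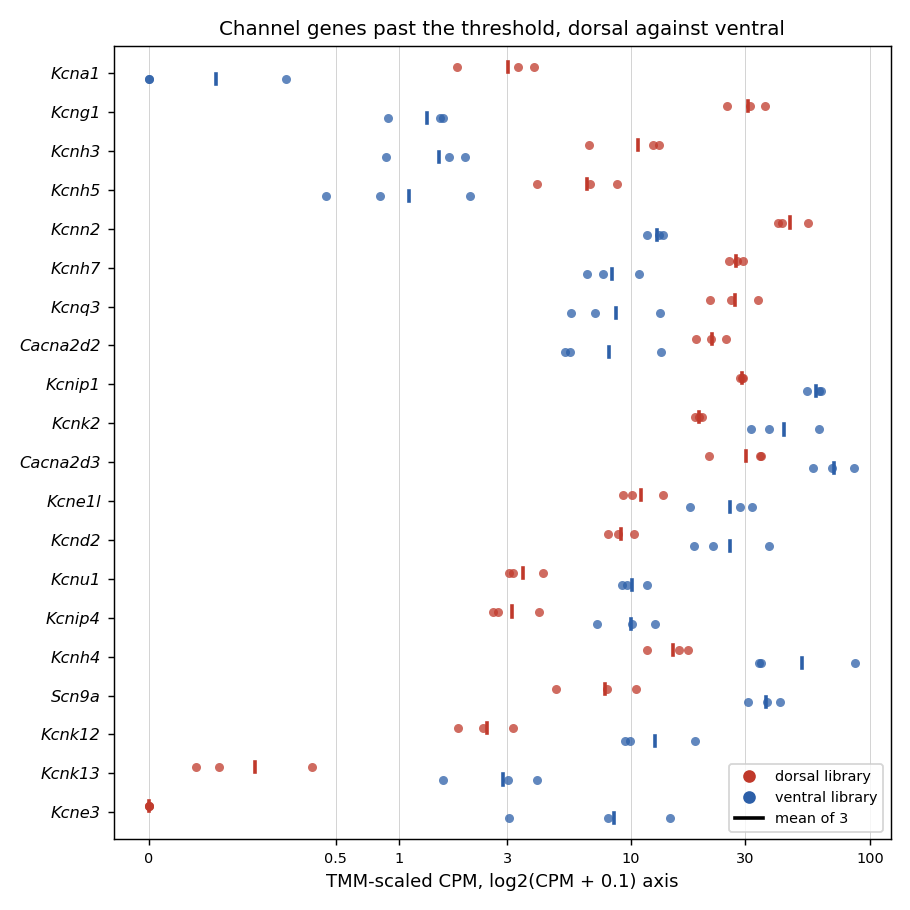
TMM-scaled CPM of the 20 channel genes past the threshold on a log2(CPM + 0.1) axis, 1 point per library and a bar at the mean of 3. For all 20 genes the 3 dorsal points (red) lie entirely to one side of the 3 ventral points (blue), with Kcng1 and Kcne3 among the widest gaps.

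Of the 20 called genes, 8 passed the threshold in every one of the 11 alternative fits in which they were tested: Kcng1, Kcnh3, Kcnh7 and Kcnn2 in dorsal, and Scn9a, Kcnip1, Kcnk12 and Kcne3 in ventral. Kcne3 was tested in 10 of them. The other 12 lost their call when some single library was left out, and those libraries are named with each gene below. RefSeq promoter windows on GRCm38.p6 matched 98 of the 133 genes. They are shown for the 5 of these 8 genes that had one (Kcnh7, higher in dorsal, and the 4 ventral genes), to set the starts of genes that differed in opposite directions side by side. Each line gives the 250 bases before the annotated start, 5′ to 3′ on the gene's strand, with every CG dinucleotide in capitals.
Kcnh7, chr2:63184288-63184537, minus strand: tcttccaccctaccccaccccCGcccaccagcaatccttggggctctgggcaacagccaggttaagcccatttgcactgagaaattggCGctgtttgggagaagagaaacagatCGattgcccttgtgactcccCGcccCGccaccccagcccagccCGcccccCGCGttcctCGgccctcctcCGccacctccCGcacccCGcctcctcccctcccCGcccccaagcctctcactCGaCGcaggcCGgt
Kcne3, chr7:100176420-100176669, plus strand: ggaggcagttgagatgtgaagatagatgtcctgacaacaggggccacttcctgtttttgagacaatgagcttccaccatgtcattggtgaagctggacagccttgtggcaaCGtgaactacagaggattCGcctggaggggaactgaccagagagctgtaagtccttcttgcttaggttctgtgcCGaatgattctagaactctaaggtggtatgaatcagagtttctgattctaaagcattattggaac
Kcnip1, chr11:33993194-33993443, minus strand: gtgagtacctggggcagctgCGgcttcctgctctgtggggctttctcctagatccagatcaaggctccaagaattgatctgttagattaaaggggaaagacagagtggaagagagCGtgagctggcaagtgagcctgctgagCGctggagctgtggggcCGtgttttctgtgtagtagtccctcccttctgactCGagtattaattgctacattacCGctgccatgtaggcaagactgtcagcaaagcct
Kcnk12, chr17:87797995-87798244, minus strand: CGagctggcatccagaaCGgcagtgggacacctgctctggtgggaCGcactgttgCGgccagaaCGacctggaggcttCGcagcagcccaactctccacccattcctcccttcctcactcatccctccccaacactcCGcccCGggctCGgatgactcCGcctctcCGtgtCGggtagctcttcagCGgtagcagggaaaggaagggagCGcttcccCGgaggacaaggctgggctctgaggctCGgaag
Scn9a, chr2:66634963-66635212, minus strand: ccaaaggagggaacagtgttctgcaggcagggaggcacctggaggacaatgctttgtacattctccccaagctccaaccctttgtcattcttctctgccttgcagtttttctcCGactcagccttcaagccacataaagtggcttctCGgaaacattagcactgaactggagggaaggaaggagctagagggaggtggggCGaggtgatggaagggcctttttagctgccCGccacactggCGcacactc
Kcnh7 and Kcnk12 start in windows with 16 CG dinucleotides each and a GC content of 67.6% and 64.8%. Scn9a has 5 at 54.4%, Kcnip1 has 6 at 52.8%, and Kcne3 has 3 at 46.8%. CG-rich and CG-poor starts thus both occur among the 4 ventral genes. The RefSeq start used for Kcne3 lies 168 bases from its start in GENCODE M21. Across the 98 matched channel genes the median window held 8 CG dinucleotides at 58.8% GC, against 6 and 52.4% over all 32851 windows of the table. The 65 matched genes that were expressed enough to be tested had a median of 12, and the other 33 had 6. Short words that known factors bind were counted on both strands: CAGCTG and CAGATG for bHLH factors and ATCAAAG for TCF/LEF factors, none of which contains another. CAGCTG, which reads the same on both strands, was in 24.5% of channel windows and 13.001% of all windows, and the shown Kcnip1 window holds it once. CAGATG was in 12.2% and 14.4%, and ATCAAAG in 2.04% and 3.21%. The CAGCTG share was 20.0% among the 65 tested channel genes and 33.3% among the other 33. A matched word is only a stretch of letters.

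Among voltage-gated potassium alpha subunits, 30 of 40 were tested. Of these, 6 (20.0%) were higher in dorsal and 2 (6.67%) in ventral, against 7.14% and 9.54% of all tested genes. The other 22 did not pass. DESeq2 called 7 and 4.

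Kcng1, a modifier subunit that makes no channel alone and joins pores such as that encoded by Kcnb2, lies at chr2:168260117-168281736. It had 31.4, 36.4 and 25.4 CPM in the dorsal libraries and 1.53, 1.57 and 0.890 in the ventral ones. The lowest dorsal library was far above the highest ventral one. The log2 difference was 4.54 ± 0.35 (SE; 23.4-fold; adjusted p = 0.000156, edgeR quasi-likelihood). Kcnb2 did not pass the test, with 27.6, 24.9 and 23.0 CPM against 14.2, 15.5 and 3.56 (log2 difference 1.18 ± 0.49, adjusted p = 0.148). All 3 of its dorsal libraries were higher, and it passed without ventral library 3.

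The Kcnh family comprises the Eag, Erg and Elk channels, which share a cyclic-nucleotide-binding-like domain and open slowly on depolarization. All 8 members were tested. Of these, 3 (37.5%) were higher in dorsal and 1 (12.5%) in ventral, against 7.14% and 9.54% of all tested genes. Both directions occurred within the Elk branch. Kcnh3, an Elk channel of forebrain neurons, had 12.4, 13.1 and 6.68 CPM in dorsal and 1.97, 0.865 and 1.67 in ventral. Its sets did not overlap, and the difference was 2.83 ± 0.50 on the log2 scale (7.14-fold; adjusted p = 0.00729, edgeR quasi-likelihood). Kcnh4, another Elk channel, showed the opposite order with 17.3, 15.9 and 11.7 CPM in dorsal and 34.9, 34.4 and 86.5 in ventral (-1.79 ± 0.40, adjusted p = 0.0190). Ventral library 3 alone held more than the sum of the other two. The Kcnh4 call was lost without dorsal library 1, 2 or 3, at adjusted p between 0.0535 and 0.0602. The Elk gene Kcnh8 had 11.7, 8.74 and 8.84 CPM against 16.6, 17.7 and 18.2, without overlap but short of the threshold (-0.84 ± 0.26, adjusted p = 0.0672). DESeq2 called it, as did edgeR without ventral library 3.

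Kcnh7, which encodes an Erg channel and lies at chr2:62693414-63184287, had 29.5, 25.6 and 27.9 CPM in dorsal and 6.56, 7.62 and 10.8 in ventral. Values within each region lay close together beside the gap between regions. The difference was 1.73 ± 0.27 (adjusted p = 0.00416, edgeR quasi-likelihood). Gca, on the opposite strand, covers 4.6% of its exon bases. The Erg gene Kcnh2 was near level (0.22 ± 0.25, adjusted p = 0.594), and Kcnh6 was low in both regions. In the Eag branch, Kcnh5 was higher in dorsal (6.72, 8.79 and 4.02 against 2.07, 0.811 and 0.445 CPM; 2.54 ± 0.69, adjusted p = 0.0405). Its call was lost without dorsal library 1 or 2 or ventral library 2, at adjusted p between 0.131 and 0.157. Kcnh1 was ordered the other way, at 2.54, 3.31 and 0.283 CPM in dorsal and 10.01, 12.2 and 5.06 in ventral, without passing by edgeR (-2.14 ± 0.80, adjusted p = 0.111), whereas DESeq2 called it.

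Kcnq3, a subunit of the slow M-type current, had 26.2, 21.5 and 34.2 CPM in dorsal and 7.10, 5.57 and 13.2 in ventral (1.66 ± 0.38, adjusted p = 0.0203). Dorsal libraries were all higher. Kcnq5 pointed the same way as Kcnq3 at lower levels (1.56 ± 0.62, adjusted p = 0.134). The Kcnq3 call was lost without dorsal library 1 or 3 or ventral library 1 or 2, at adjusted p between 0.0546 and 0.0858. Kcna1, a Shaker-type channel of axons, had 3.34, 3.89 and 1.81 CPM in dorsal and 0, 0.270 and 0 in ventral, where 5 counts were found in all. Its difference (4.98 ± 1.24, adjusted p = 0.0298) was lost without dorsal library 1 or 2 or ventral library 1, at adjusted p between 0.0920 and 0.0971. Kcna1 was the only called gene of the 6 tested Kcna genes (16.7%, against 7.14% of all tested genes higher in dorsal). Kcnq3 and Kcnh7 lie outside the rule for named genes, and were named after their values were seen.

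Subunits of the Kv4 channel, which carries a fast-inactivating current below spike threshold, were looked at together after their values were seen. Its pore genes are Kcnd1, Kcnd2 and Kcnd3, its cytoplasmic calcium-sensing subunits Kcnip1 to Kcnip4, and its membrane partners Dpp6 and Dpp10. Kcnip1, at chr11:33629339-33993152, had 29.6, 28.7 and 29.2 CPM in dorsal and 54.6, 62.4 and 61.1 in ventral. The dorsal libraries were within 1 CPM of each other, and the difference was -1.03 ± 0.17 (2.04-fold; adjusted p = 0.00525, edgeR quasi-likelihood). Kcnd2 had 10.3, 8.84 and 8.04 CPM against 18.3, 22.1 and 37.7 (-1.52 ± 0.33, adjusted p = 0.0162). This call was lost without dorsal library 1 or 2, at adjusted p of 0.0527 and 0.0647. Kcnip4 had 2.72, 4.08 and 2.61 CPM against 12.6, 10.2 and 7.18 (-1.67 ± 0.41, adjusted p = 0.0281), and only the fit without ventral library 3 among the 6 that left out a library kept it (adjusted p of 0.0544 to 0.131 in the others).

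Dpp6 was also higher in ventral, at 56.6, 59.1 and 25.7 CPM in dorsal and 113, 109.8 and 93.0 in ventral (-1.16 ± 0.31, adjusted p = 0.0390). The remaining subunits did not pass: Kcnip2 at -1.31 ± 0.40 (adjusted p = 0.0635), Dpp10 at -0.83 ± 0.41 (0.216), Kcnd1 at 0.51 ± 0.90 (0.750), Kcnd3 at 0.90 ± 0.30 (0.0846) and Kcnip3 at 1.41 ± 0.53 (0.117). Kcnd3 and Kcnd2 thus had opposite signs, with Kcnd3 at 20.4, 20.6 and 12.01 CPM in dorsal and 10.2, 9.30 and 8.90 in ventral. Kcnip3, also known as the transcriptional repressor DREAM, was at 28.8, 31.7 and 25.8 against 13.5, 16.01 and 2.95 CPM. DESeq2 called Kcnip2 and Kcnd3, as did edgeR without dorsal library 3.

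**Figure D2:**
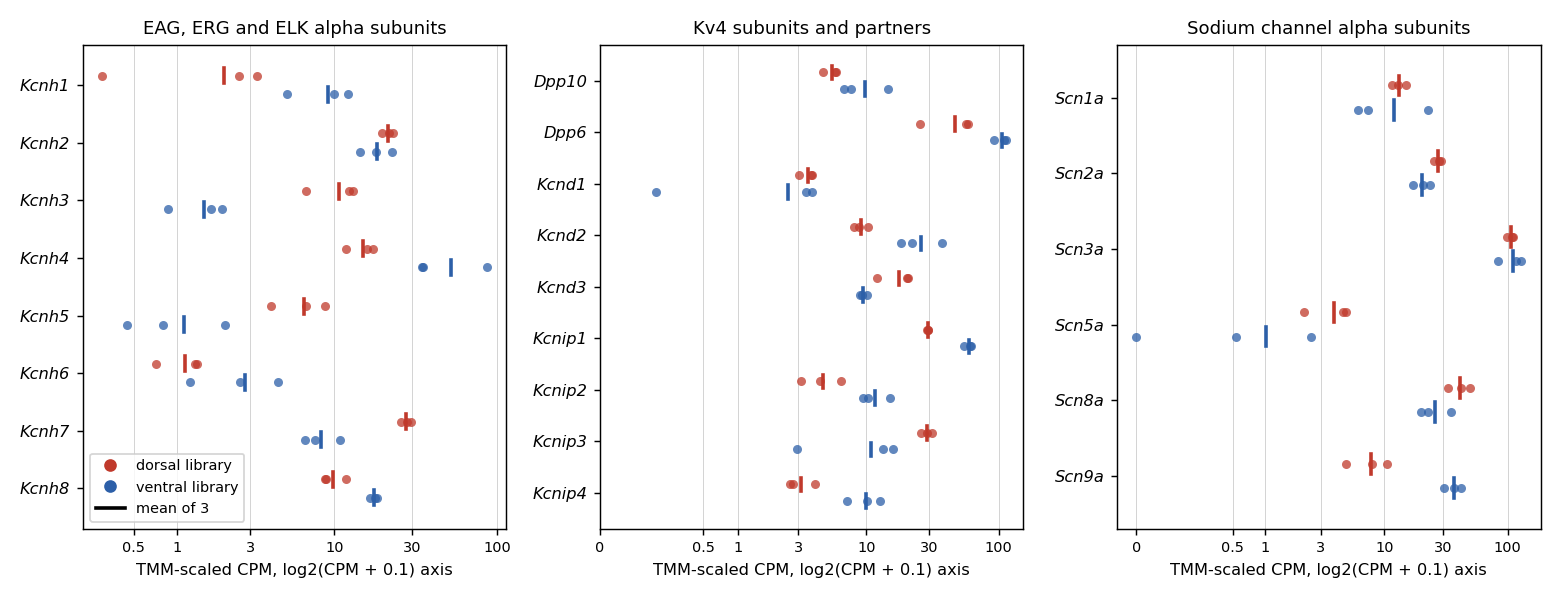
TMM-scaled CPM per library on log2(CPM + 0.1) axes for the 8 Kcnh genes, the Kv4 pore genes with their Kcnip and Dpp partners, and the tested sodium alpha genes, with bars at the mean of 3. Dorsal (red) and ventral (blue) points separate in opposite directions within each of the first 2 panels (Kcnh3 against Kcnh4, Kcnd3 against Kcnd2), and Scn9a is the called gene among the sodium alpha genes.

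Inward rectifiers, which hold the resting potential, were mostly low. Of 15, 7 were tested and none was called by edgeR or DESeq2, with 2 higher in dorsal at an unadjusted p under 0.05. Kcnj3, a subunit of G-protein-gated channels, had 9.49, 7.92 and 8.10 CPM in dorsal and 4.83, 4.43 and 1.67 in ventral (1.22 ± 0.48, adjusted p = 0.130). Its channel partner Kcnj5 had 11.7, 10.7 and 8.95 against 8.68, 5.30 and 0.278 CPM (1.14 ± 0.88, adjusted p = 0.432). All dorsal libraries were above all ventral ones for both genes, and ventral library 3 was the lowest. Kcnj3 shares 31.1% of its exon bases with Gm26794 on the opposite strand, and the counting is not stated to use strand.

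Two-pore-domain channels carry the background leak. Of 14, 9 were tested. None was higher in dorsal and 3 (33.3%) were higher in ventral, against 7.14% and 9.54% of all tested genes. Kcnk5, with all dorsal libraries above all ventral ones, was called when ventral library 3 was left out. Kcnk12, at chr17:87745801-87797994, had 2.35, 1.83 and 3.17 CPM in dorsal and 9.42, 9.95 and 18.5 in ventral, with a wide gap between regions. Its difference was -2.37 ± 0.44 (5.16-fold; adjusted p = 0.00908, edgeR quasi-likelihood). Kcnk13, its closest relative, had 0.376, 0.0961 and 0.0566 CPM in dorsal and 1.58, 3.03 and 4.005 in ventral (-3.95 ± 0.90, adjusted p = 0.0203). The Kcnk13 call was lost without dorsal library 2 or ventral library 2, at adjusted p of 0.0598 and 0.0959. Kcnk13 is known from microglia. Of 6 macrophage and microglia markers, Ctss and Lyz2 were tested and higher in ventral. The untested Aif1, C1qa, Csf1r and Cx3cr1 had 51, 10, 17 and 23 counts in ventral and 27, 18, 14 and 73 in dorsal. The summed list was at 1.10 to 4.93 CPM in dorsal and at 22.4, 40.1 and 5.62 in ventral libraries 1, 2 and 3. Kcnk13 ranks these libraries in another order, with its highest value in ventral library 3. The part of this list in the Kcnk13 difference was not tested.

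Kcnk2, a mechanically and lipid-gated leak channel, had 19.4, 18.6 and 19.9 CPM in dorsal and 37.7, 31.9 and 61.1 in ventral (-1.18 ± 0.27, adjusted p = 0.0224). Dorsal libraries were close together, and the call was lost without dorsal library 1 or 2 or ventral library 1, at adjusted p between 0.0521 and 0.0875. Of its exon bases, 12.2% overlap A430027H14Rik on the opposite strand. Its relative Kcnk10 was at 65.1, 65.3 and 33.0 CPM in dorsal and 44.6, 41.7 and 27.0 in ventral. It overlapped between regions (0.53 ± 0.32, adjusted p = 0.306).

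Among calcium- and sodium-activated potassium channels, 7 of 8 were tested. In each region 1 (14.3%) was higher, against 7.14% of all tested genes in dorsal and 9.54% in ventral. Kcnn2, a small-conductance channel that follows spikes with a hyperpolarization, had 55.0, 43.0 and 41.2 CPM in dorsal and 11.7, 13.2 and 13.6 in ventral. The lowest dorsal library was well above the highest ventral one, and the difference was 1.85 ± 0.21 (3.61-fold; adjusted p = 0.00110, edgeR quasi-likelihood). Its relatives Kcnn1 (0.56 ± 0.28, adjusted p = 0.215) and Kcnn3 (0.53 ± 0.48, 0.505) did not pass. Kcnu1, a pH-sensitive channel known from sperm, had 3.05, 3.17 and 4.25 CPM in dorsal and 11.7, 9.63 and 9.18 in ventral (-1.54 ± 0.36, adjusted p = 0.0226). Its call was lost without dorsal library 1 or 2 or ventral library 1 or 2, at adjusted p between 0.0713 and 0.119. Kcnma1, the large-conductance pore of the same family, had 17.8, 17.4 and 18.2 against 23.3, 31.2 and 24.1 CPM, without overlap and without passing (-0.56 ± 0.22, adjusted p = 0.130).

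Of 11 tested auxiliary potassium subunits, none was higher in dorsal and 4 (36.4%) were higher in ventral, against 7.14% and 9.54% of all tested genes. The 4 were Kcnip1 and Kcnip4 (above), Kcne1l and Kcne3. At an unadjusted p under 0.05 there were 1 gene higher in dorsal and 6 in ventral. Kcnip3, with all dorsal libraries above all ventral ones, was called when ventral library 3 was left out. Kcne1l, an X-linked single-span subunit that inhibits Kcnq1 channels, had 9.30, 10.1 and 13.7 CPM in dorsal and 28.7, 32.0 and 17.6 in ventral (-1.25 ± 0.31, adjusted p = 0.0285). Ventral library 3 was the closest to dorsal, and the call was lost without dorsal library 1 or 2 or ventral library 1 or 2 (adjusted p between 0.106 and 0.124).

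Kcne3, the subunit that keeps Kcnq1 channels open in intestinal epithelium, had no counts in the 3 dorsal libraries and 7.99, 14.5 and 3.06 CPM in the ventral ones. With 3 counts over the dorsal libraries as the floor, it was at least 170-fold higher in ventral (adjusted p = 0.00391, edgeR quasi-likelihood), or at least 110.05-fold without ventral library 2. The small-intestine markers in the same ventral libraries summed to 3888, 6935 and 1881 CPM, which ranks the libraries as Kcne3 does. Kcne3 was at 2.05, 2.10 and 1.63 CPM per 1000 CPM of those markers. All 10 listed intestinal genes were higher in ventral, and Defa2 was the one with no dorsal counts. The part of intestinal RNA in the Kcne3 difference was not tested. Kcnq1 itself stayed under the filter, with 11 dorsal and 57 ventral counts.

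**Figure D3:**
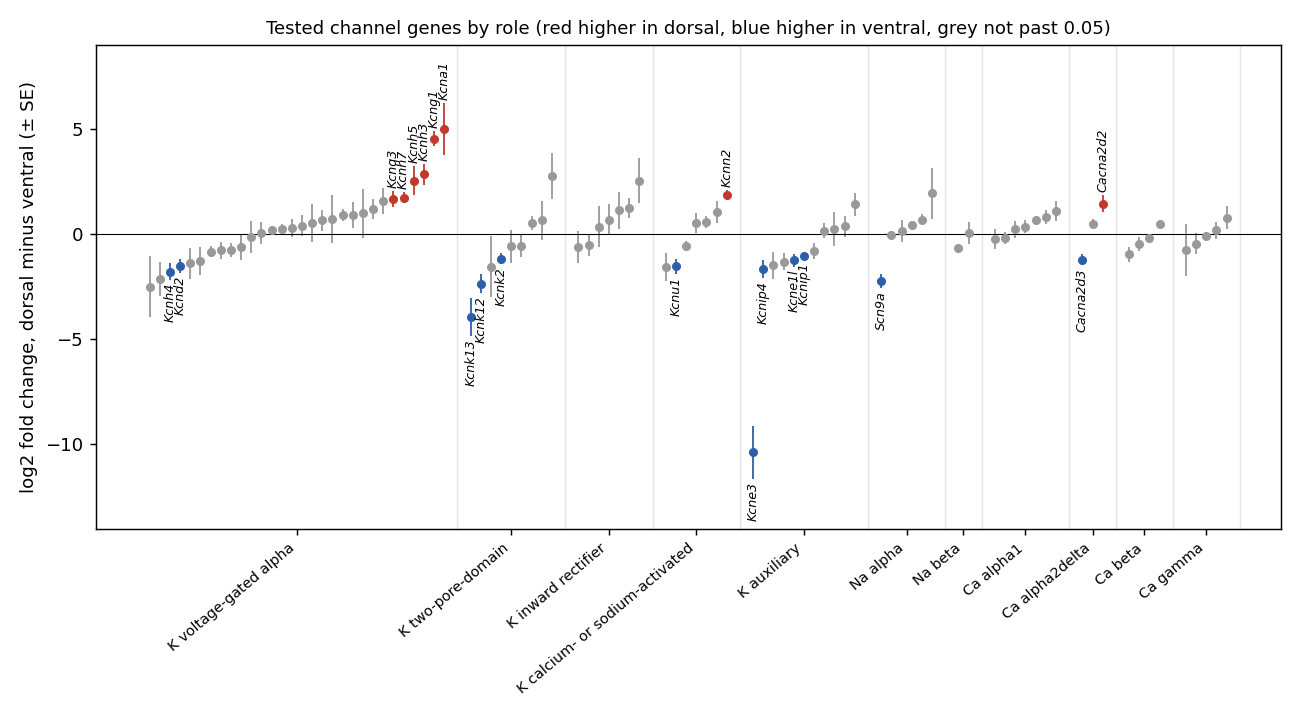
Log2 fold change, dorsal minus ventral, with its SE for the 91 tested channel genes, grouped by role. Red and blue points passed the threshold (8 and 12 genes) and grey points did not; voltage-gated potassium alpha genes carry 6 of the 8 dorsal calls, and auxiliary and two-pore-domain genes carry ventral calls alone. The fitted value of Kcne3, which had no dorsal counts, depends on the fit's prior count and is no bound.

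Sodium alpha subunits were tested for 6 of 10 genes. None was higher in dorsal and 1 (16.7%) was higher in ventral, against 7.14% and 9.54% of all tested genes. Scn9a, which sets the firing threshold of peripheral sensory and sympathetic neurons, had 4.84, 7.92 and 10.54 CPM in dorsal and 37.0, 30.8 and 41.9 in ventral. The sets were well apart, and the difference was -2.24 ± 0.33 (4.71-fold; adjusted p = 0.00304, edgeR quasi-likelihood). Of 5 neural crest and glia markers, 2 were tested and 1 was higher in ventral. That list summed to 7.25 to 10.9 CPM in dorsal and to 99.1, 107.7 and 88.0 in ventral libraries 1, 2 and 3, which is not the order of Scn9a. Its part in the Scn9a difference was not tested. Scn9a lies at chr2:66480080-66634962 in a cluster of 5 sodium alpha genes that spans 1328 kb from Scn3a through Scn2a, Scn1a and Scn9a to Scn7a. None of its tested neighbours passed: Scn3a was at -0.05 ± 0.20 (adjusted p = 0.889), Scn2a at 0.42 ± 0.22 (0.228) and Scn1a at 0.13 ± 0.51 (0.892). Scn7a had 10 dorsal and 76 ventral counts, too few to be tested.

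Scn3a, the main sodium pore of the immature brain, was the most abundant alpha subunit, at 111, 99.9 and 108 CPM in dorsal and 118, 84.2 and 129 in ventral, which overlapped. Scn8a, the pore of axon initial segments in older neurons, had 41.8, 32.7 and 49.5 CPM against 22.5, 20.01 and 34.8 (0.68 ± 0.28, adjusted p = 0.141). Of the beta subunits, which act as adhesion molecules as well as modulators, Scn3b had 81.2, 83.2 and 50.8 CPM in dorsal and 122, 117 and 105 in ventral. Its libraries did not overlap, yet it missed the threshold by edgeR (-0.68 ± 0.22, adjusted p = 0.0769). DESeq2 called it, as did edgeR without dorsal library 3 or ventral library 3. Scn2b was low and level (0.05 ± 0.53, adjusted p = 0.960).

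Calcium alpha1 pores gave no call by edgeR in 7 tested genes, with 3 higher in dorsal at an unadjusted p under 0.05 and 1 by DESeq2. Cacna1h, a T-type channel that opens near rest, was the most abundant at 40.6, 41.0 and 36.8 CPM in dorsal and 28.9, 20.9 and 26.1 in ventral. It was higher in all dorsal libraries without passing (0.64 ± 0.20, adjusted p = 0.0696), and DESeq2 gave it an adjusted p of 0.0239. Cacna1e, an R-type pore, overlapped between regions (-0.18 ± 0.29, adjusted p = 0.726).

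The alpha2delta subunits, extracellular proteins that bring calcium channels to the surface, split between the regions. Cacna2d3 had 35.0, 34.6 and 21.4 CPM in dorsal and 85.6, 69.2 and 57.9 in ventral (-1.22 ± 0.26, adjusted p = 0.0149), a call lost without ventral library 1 (-1.07, adjusted p = 0.0665). Cacna2d2 had 18.7, 21.7 and 25.1 CPM in dorsal and 5.52, 5.30 and 13.4 in ventral (1.44 ± 0.41, adjusted p = 0.0494). It sat at the threshold, and of the 6 fits that left out a library only that without ventral library 3 kept it (adjusted p of 0.102 to 0.157 in the others). Cacna2d1, the most abundant with Cacna2d3, differed by 0.49 ± 0.22 (adjusted p = 0.177).

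Neither the 4 beta subunits nor the 5 tested gamma subunits gave a call by edgeR; at an unadjusted p under 0.05 there were 1 beta gene in each direction and no gamma gene, and DESeq2 called the same numbers. Cacnb3, a cytoplasmic subunit that carries the pore to the membrane, had 140, 148 and 173 CPM in dorsal and 143, 171 and 215 in ventral (-0.20 ± 0.20, adjusted p = 0.545). Cacng4, a gamma subunit that also escorts AMPA receptors, had 81.4, 76.5 and 104 CPM against 97.9, 81.4 and 103 (-0.11 ± 0.19, adjusted p = 0.743). Divided by exon length and averaged over both regions, Cacnb3, Cacng4 and Scn3b were the most abundant channel transcripts, with Cacnb3 at a level of 38.3 CPM per kb in dorsal and 43.9 in ventral, Cacng4 at 24.4 and 26.3, and Scn3b at 13.1 and 21.01.

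Other cation channels and channel partners were read from a separate list. Of 44 found, 38 were tested. Of these, 2 (5.26%) were higher in dorsal and 3 (7.89%) in ventral, against 7.14% and 9.54% of all tested genes. Ank2, a scaffold that anchors channels and exchangers, and Amigo1, a membrane partner of potassium channels, were higher in dorsal (0.74 ± 0.15, adjusted p = 0.0150, and 0.96 ± 0.26, adjusted p = 0.0428). Amigo1 had 21.7, 25.3 and 22.3 CPM in dorsal and 13.5, 13.4 and 8.73 in ventral. In ventral, besides Dpp6, Fam155a, a subunit of the sodium leak channel, was higher (12.9, 10.9 and 13.1 against 43.2, 33.3 and 49.1 CPM; -1.77 ± 0.23, adjusted p = 0.00193). The leak pore Nalcn itself had 9.49, 11.1 and 4.53 against 24.4, 20.5 and 10.96 CPM without passing (-1.15 ± 0.44, adjusted p = 0.118). Rrad, a small GTPase that inhibits calcium channels, had 0.658, 0.384 and 0.510 CPM in dorsal and 14.6, 14.0 and 23.8 in ventral (-5.06 ± 0.45, adjusted p = 0.000316).

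Ventral library 3 differed from the other ventral libraries for many channel genes. In it, 20 of the 91 tested channel genes (22.0%) were under 50% of both other ventral libraries, against 14.6% of all tested genes, and 7 were at 0. In the other direction, 12 (13.2%) were over 2-fold of both, against 7.70% of all tested genes. Kcna3, a Shaker-type channel, was at 14.3, 21.9 and 0.0556 CPM in ventral libraries 1, 2 and 3. Kcnk1, a leak channel, was at 6.61, 10.004 and 0. Leaving out single libraries changed the calls over all tested genes too, by the range given at the end. Without ventral library 3 the test called 17 channel genes for dorsal and 16 for ventral. The calls then included all 20 above and 13 others: Cacna1g, Cacna2d1, Cacnb2, Kcna5, Kcnb2, Kcnh8, Kcnip3, Kcnj11, Kcnk5, Kcnn3, Scn1a, Scn3b and Scn8a. The count in dorsal was also over 1.5 times apart from 8 without dorsal library 1 (4), dorsal library 2 (5), ventral library 1 (5) and ventral library 2 (5), and that in ventral from 12 without dorsal library 1 (6), dorsal library 2 (5) and ventral library 1 (7).

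The Smart-seq2 libraries were compared without a test, since the labels name no animal and each genotype counts as 1 sample. Axin2, the targeted gene, was at 0, 3.28 and 22.4 TPM (transcripts per 1000000; lowest, median and highest) in the libraries labelled null and at 4.32, 13.2 and 35.9 in those labelled wild type. The ranges overlapped, so the genotypes are given as labelled. Telencephalic markers were present in both (summed level 267 to 625 TPM and 334 to 709). Between 12 and 38 channel genes reached 1 TPM per library labelled null and between 14 and 42 per library labelled wild type, with all genes at 7863 to 11852 and 8693 to 12209. Of the 133 channel genes, 23 were listed at 0 in all 25 libraries and 20 reached 1 TPM in at least 50% of them.

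A mean of at least 1 TPM was reached by 43 channel genes. Of these, 17 had a higher mean log2(TPM + 1) in the libraries labelled null and 26 a lower one; of all 13680 genes at that level, 34.1% were higher. The median difference, null minus wild type, was -0.18 for channel genes and -0.22 for all genes. None of the 43 was higher by 1 or more (1.39% of all genes were), and 4 were lower by 1 or more (8.14% of all genes were): Cacnb3, Cacna2d3, Cacna1h and Kcnk2.

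Cacnb3 had the highest mean level of any channel gene over all 25 libraries (17.4 TPM in those labelled null, where Kcnip1, Cacna1g and Kcne1l had higher means, and 26.9 in those labelled wild type). It was at 0, 20.2 and 38.5 TPM (lowest, median, highest) in the libraries labelled null and 9.41, 21.7 and 52.1 in those labelled wild type. Its medians were close while its lowest values differed, and the difference of means was -1.16 on the log2(TPM + 1) scale. Cacna2d3 was at 0, 1.79 and 23.5 TPM against 0, 5.91 and 54.6 (difference -1.12). Its ranges overlapped, and without 5 libraries with fewer than 9000 genes at 1 TPM (4 labelled null, 1 labelled wild type) the difference was -0.20. Cacna1h was at 1 TPM or more in 3 of 13 libraries labelled null and 8 of 12 labelled wild type (difference -1.05, and -0.996 without those 5 libraries). Kcnk2 was at 0, 1.72 and 12.6 TPM against 0.530, 7.21 and 26.4 (difference -1.02), and at -0.53 without those 5 libraries. Cacnb3 was then at -0.74, so none of the 4 stayed at 1 or more.

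On the other side, Scn3b was at 0, 1.69 and 36.5 TPM in the libraries labelled null and 0, 1.19 and 38.7 in those labelled wild type (difference 0.64). Cacna1g, a T-type pore, was at 0, 7.41 and 100.2 against 0, 7.17 and 22.1 TPM (0.58). The medians of both genes were close, and for Cacna1g a single library labelled null at 100.2 TPM lay above the next at 38.1, without which the mean of that genotype was 12.8 rather than 19.6 TPM. Scn8a was at 0, 2.72 and 36.4 against 0, 1.35 and 8.05 TPM (0.56). Without the 5 libraries with fewer genes, the differences were 1.21 for Scn3b, 1.31 for Cacna1g and 0.42 for Scn8a. Leaving out single libraries gave 0.29 to 0.84 for Cacna1g, 0.39 to 0.97 for Scn3b, -1.39 to -0.82 for Cacna2d3 and -1.31 to -0.87 for Cacnb3. Kcnip1, with a mean of 20.5 TPM in the libraries labelled null and 13.2 in those labelled wild type, was at 0, 12.7 and 65.6 TPM against 0, 11.02 and 32.2 (difference -0.15, with either sign when single libraries were left out). Among the 18 genes named by the rule, Kcnip1, Cacna1g and Cacnb1 lie on chromosome 11, the recombined chromosome. Cacng4 and Kcnab3, also at a mean of at least 1 TPM, lie there too (differences 0.14 and -0.47). For all 18 genes named by the rule the ranges of the genotypes overlapped.

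**Figure D4:**
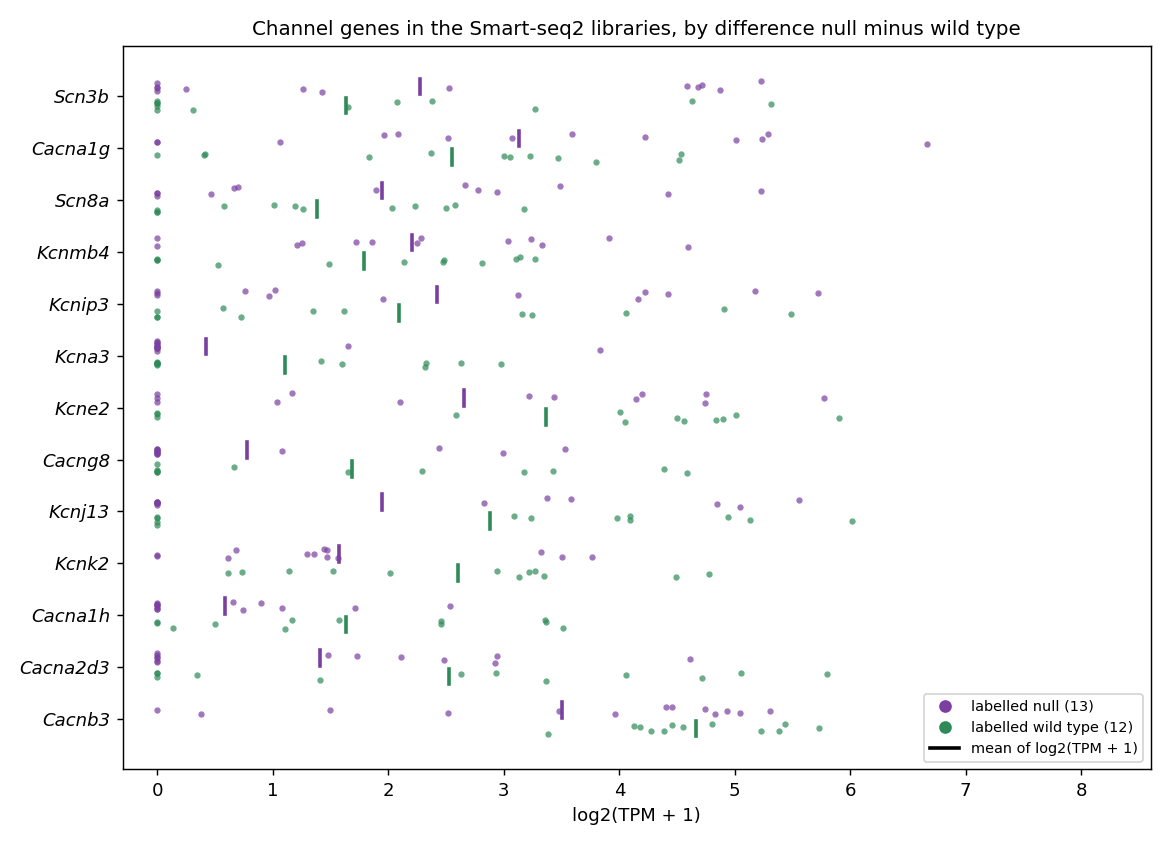
Log2(TPM + 1) of the 13 named channel genes that differed by 0.3 or more in either direction, in the 13 libraries labelled null (purple) and the 12 labelled wild type (green), 1 point per library with a bar at the mean, ordered by the difference null minus wild type. The points of the genotypes overlap for all 13 genes, and many libraries of both lie at 0.

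Kcne2 and Kcnj13, a regulatory subunit and an inward rectifier known from the choroid plexus epithelium, were among the more abundant channel genes by the mean over these libraries. Both were under the filter in the diencephalon (17 and 28 counts in dorsal, 32 and 8 in ventral). Kcne2 was at 0, 8.33 and 53.6 TPM in the libraries labelled null and 0, 18.6 and 58.9 in those labelled wild type (difference -0.70), and Kcnj13 at 0, 0 and 46.1 against 0, 11.6 and 63.8 (-0.94). The labels call each library a cell, but whether each holds 1 cell or several was not settled from the files, so detection in the same library need not be in the same cell. Both reached 1 TPM together in 4 libraries labelled null and 8 labelled wild type. Kcne2 alone did so in 6 and 1, Kcnj13 alone in 2 and 0, and neither in 1 and 3. Other transcripts of that epithelium varied: Ttr was at 1 TPM or more in all 13 libraries labelled null and all 12 labelled wild type, Folr1 in 9 and 11, Sostdc1 in 8 and 10, Clic6 in 9 and 8, Aqp1 in 1 and 1, and Kl in 0 and 1. Of Kcnj13's exon bases, 49.1% overlap Gigyf2 on the opposite strand. The 8 genes called between the diencephalic regions in every alternative in which they were tested were read here too. Kcnip1 reached 1 TPM in 20 of the 25 libraries, Kcnh7 in 14, Kcnn2 in 10 and Kcne3 in 7. Kcng1 did so in 5, Scn9a in 3, Kcnh3 in 2 and Kcnk12 in none, where it was listed at 0.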

How the data were processed

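The submitters' processing notes name Trimmomatic, STAR 2.7.0a and featureCounts and the builds mm10 and GRCm38, without their roles or order. Although labelled TPM, the bulk table has columns that sum to the library totals given above, and 46.6% of its values above 0 are whole within 0.0001, so its values were treated as estimated counts deposited by the authors and rounded. The authors' Smart-seq2 table holds TPM, whose columns sum to between 999999.57 and 1000000.7, so depth is unknown. Its columns name a genotype and no numbered sample. GENCODE M21 and the supplied name tables gave symbols for 34651 bulk and 55227 Smart-seq2 identifiers, and coordinates are GENCODE M21 on GRCm38.

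Bulk counts were tested with edgeR 4.0.16 (TMM, quasi-likelihood F test) in R 4.3.3 on genes whose mean over 6 libraries was 1 CPM or more, with Benjamini-Hochberg adjustment over all of them and a threshold of 0.05. SEs were derived from the fold change and the F statistic. Log2 values are dorsal minus ventral. Floors of 3 counts cover counting error only. Nothing in the labels says that libraries came from separate embryos, so p-values measure the spread between libraries, which may be technical. No batch is given. Alternatives were DESeq2 1.42.0, RLE scaling, other filters, a replicate block and leaving out each library. Replicate numbers were checked for pairing and did not meet the criterion. The fit was tested on simulated data.

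Smart-seq2 values were compared as differences of mean log2(TPM + 1), which understate changes of low genes. Bulk genes were named as up to 4 called members per role and direction and the 2 most abundant per role; Smart-seq2 genes as the 8 largest differences per direction among genes at 1 TPM in at least 50% of libraries of the higher genotype and the 5 most abundant. Members and lists were chosen with earlier results of these data known. The choroid plexus genes and the leave-outs of Smart-seq2 libraries were chosen after seeing the data. Some channel genes are counted but not reported by name here.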

Additional observations from a re-analysis of the deposited data

How the results depend on the processing

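All 20 channel calls were kept under DESeq2 (11 higher in dorsal, 17 in ventral), RLE scaling (8 and 12) and no filter (9 and 12). With at least 0.5 CPM in both regions, 16 were kept (6 and 10; Kcna1, Kcne3 and Kcnk13 were not tested, and Cacna2d2 did not pass) and all tested genes gave 834 in dorsal and 840 in ventral, against 1050 and 1403. Leaving out single libraries gave 4 to 17 channel genes in dorsal and 5 to 16 in ventral, and 500 to 1695 and 839 to 1928 over all genes. The replicate block, with numbers that do not meet the pairing criterion (correlations 0.099, 0.148 and 0.165 between same-numbered libraries), gave 7 channel genes in each direction and kept 13 of the 20. Shares over all genes are not given here for DESeq2, RLE scaling, no filter and the replicate block. Dorsal library 2 correlated better with ventral library 1 (0.187) than with its own number, so not every library correlated best with its own. Signs turned for genes near 0: over the fits that left out a library Cacna1e ranged from -0.41 to 0.061, Cacng2 from -0.90 to 0.15 and Scn3a from -0.22 to 0.045, each positive only without ventral library 3. Scn2b ranged from -0.12 (without ventral library 3) to 0.30, with -0.063 without dorsal library 1 and -0.028 without ventral library 2. The cause was not tested. The Smart-seq2 median of -0.18 was -0.42 with a pseudocount of 0.1 TPM, -0.03 with no filter (110 genes), -0.61 at a mean of at least 5 TPM (13 genes), -0.22 as a ratio of means and -0.09 without the 5 libraries with fewer genes. TPM keeps no depth, and 42 channel genes were too low in bulk to be tested.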
